A study of Mus musculus with 4 samples.

Results

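The genes described here bind retinoids or carry out the main steps of retinoid metabolism, and were taken by symbol from the deposited expression table: Crabp1, Crabp2, Rdh10, Dhrs3, Aldh1a1, Aldh1a2, Aldh1a3, Cyp26b1 and Stra6. They are 9 of its 23361 genes. RNA was sequenced from 2 libraries of Shh+ and 2 libraries of Nfatc1+ hair peg cells of mouse embryonic back skin. The hair peg is the stage at which the follicle grows down into the dermis, and the comparison asks how cells that express Shh differ from the Nfatc1+ cells of the upper peg. Shh+ cells came from Shh-CreER::Rosa-stop-tdTomato::K14-H2BGFP embryos and Nfatc1+ cells from Nfatc1-CreER::Rosa-stop-tdTomato::K14-H2BGFP embryos. In both, Tamoxifen given at E15.5 let the CreER recombinase switch on the red reporter tdTomato, and cells that also carried the green nuclear reporter driven by the epithelial K14 promoter were sorted at E17.5. Because the red mark is permanent, a sorted cell had CreER activity after Tamoxifen and need not still express the gene. Shh+ cells were released with dispase at 0.4 mg/ml for 1 h, removal of the epidermis and 10 min in 0.25% trypsin, and Nfatc1+ cells with 16 min in 0.25% trypsin on whole skin. The effects of these steps and of the population cannot be told apart. Nothing in the sources tells whether libraries of the same population were made from separate litters, and p-values here speak only to how far libraries of a population varied, which can be technical variation.

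Retinoids are vitamin A and its derivatives. Stra6 takes up retinol from its carrier in blood, Rdh10 oxidises retinol to retinal, Dhrs3 reduces retinal back to retinol, and the Aldh1a enzymes turn retinal into retinoic acid, which cannot be turned back. Retinoic acid is bound in the cytoplasm by Crabp1 and Crabp2, acts in the nucleus through RAR and RXR receptors, and is broken down by Cyp26 enzymes. In skin, retinoic acid is known to affect epidermal differentiation and hair follicle development.

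Retinoic acid receptors bind repeats of a half-site, and the best known arrangement is the DR5 element, in which the repeats stand 5 bases apart. In the RefSeq promoters of GRCm38.p6 (250 bases before to 50 bases after a start site), both strands were searched for the half-site AGGTCA, or one of its variants (with AGTTCA as one, with GGGTCA as another and with GGTTCA as the last), repeated in the same direction. The table held promoters for 6 of the 9 genes, and none had a repeat spaced by 5 or by 2 bases. Of all 32851 promoters, 0.0974% held the 5-base and 0.268% the 2-base arrangement. Among 40 other genes of the pathway that had a promoter there, 2 held the DR5 arrangement, the receptor gene Rarb and the retinoic acid-degrading enzyme gene Cyp26a1. These are shown, with the half-sites in capitals, because the levels of both genes are given among the results. Both were listed as genes known to respond to retinoic acid, so 2 of 40 cannot be weighed against the share of all promoters.
Rarb, chr14:16575507-16575535, minus strand, repeat from 53 to 37 bases before the start site: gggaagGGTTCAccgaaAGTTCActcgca
Cyp26a1, chr19:37697770-37697798, plus strand, repeat from 32 to 16 bases before the start site and read on the opposite strand: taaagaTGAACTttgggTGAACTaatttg
A match describes the letters in the window and not binding of a receptor. The lack of a match says nothing about sequence outside the window or about genes without a promoter there.

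The values are FPKM, fragment numbers corrected for transcript length and for the depth of the library, and so are per length. Absolute depth is unknown. From the worth of 1 fragment among genes below 0.3 FPKM, Shh+ replicates 1 and 2 had 0.927 and 0.575 times, and Nfatc1+ replicate 2 had 0.927 times, the depth of Nfatc1+ replicate 1. Shh+ replicate 2 was thus the shallowest, and its low values are the least precise. Shh, which marked the sorted cells, was at 144 and 145 FPKM in Shh+ cells, against 10.5 and 11.7 FPKM in Nfatc1+ cells, and Nfatc1 at 25.3 and 20.1 FPKM in Shh+ cells, against 112 and 116 FPKM in Nfatc1+ cells. The 7 epithelial genes on the marker list summed to 6699 and 6502 FPKM in Shh+ cells, against 10100 and 9849 FPKM in Nfatc1+ cells. Of these, 5 were called toward Nfatc1+ cells, as were 18.9% of all tested genes. All 10 dermal fibroblast genes on the list were also measured, at a summed 692 and 810 FPKM in Shh+ cells, against 488 and 795 FPKM in Nfatc1+ cells. The 12750 genes that averaged 0.5 FPKM or more were tested with limma on log2(FPKM + 0.5). Log2 fold changes are Shh+ minus Nfatc1+ on this scale, where differences of weakly expressed genes come out too small, and a gene was called at a Benjamini-Hochberg adjusted p under 0.05.

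The 2 cytoplasmic retinoic acid-binding protein genes differed in opposite directions. Crabp1 was higher in Shh+ cells, while Crabp2 was higher in Nfatc1+ cells, and these were the only calls among the 5 of 9 genes that reached the level needed for the test. Of all tested genes, 18.1% were called toward Shh+ cells and 18.9% toward Nfatc1+ cells, 37.0% in all, so the share of calls in this small set was close to that of all genes. The median log2 fold change of the 5 was −0.39, against 0.00 for all tested genes. The libraries of the populations did not overlap for 4 of the 5, with Shh+ cells higher for 1 and Nfatc1+ cells higher for 3. Among all tested genes, 70.7% did not overlap, with Shh+ cells higher for 35.6% and Nfatc1+ cells higher for 35.1%.

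Crabp1 encodes a protein that holds retinoic acid in the cytoplasm and is thought to promote its breakdown. Its position in GRCm38 is chromosome 9, 54764748 to 54773110. It was at 15.4 and 11.6 FPKM in Shh+ replicates 1 and 2, against 3.55 and 5.89 FPKM in Nfatc1+ replicates 1 and 2. The groups did not overlap, and the 2 libraries within each group were themselves well apart. Shh+ cells averaged 13.5 ± 2.66 FPKM, against 4.72 ± 1.65 FPKM for Nfatc1+ cells (SD, n = 2), a 2.85-fold difference. The log2 fold change was 1.44 with a standard error of 0.23 (adjusted p = 0.00294), place 349 of 12750 toward Shh+ cells. The call ended with no filter on low values (adjusted p = 0.138), and without single libraries its log2 fold change lay between 1.12 and 1.77.

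Crabp2, whose protein carries retinoic acid to its nuclear receptors, lies on chromosome 3 from 87948666 to 87953376. It was at 1.63 and 1.82 FPKM in Shh+ cells, against 7.21 and 7.51 FPKM in Nfatc1+ cells. The replicates lay close together in both groups, with the groups far apart. The means were 1.73 ± 0.133 and 7.36 ± 0.214 FPKM (Shh+ and Nfatc1+ cells; SD, n = 2), 4.26-fold higher in Nfatc1+ cells. The log2 fold change was −1.82 with a standard error of 0.13 (adjusted p = 8.14e-05), place 234 of 12750 toward Nfatc1+ cells. This call held under all 13 alternatives that were run, with adjusted p from 2.5e-05 to 0.025.

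The makeup of the pair therefore differed within each library, a measure that scaling between libraries does not touch. Crabp1 made up 90.4% and 86.4% of the summed Crabp1 and Crabp2 FPKM in Shh+ cells, against 33.0% and 44.0% in Nfatc1+ cells.

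**Figure D1:**
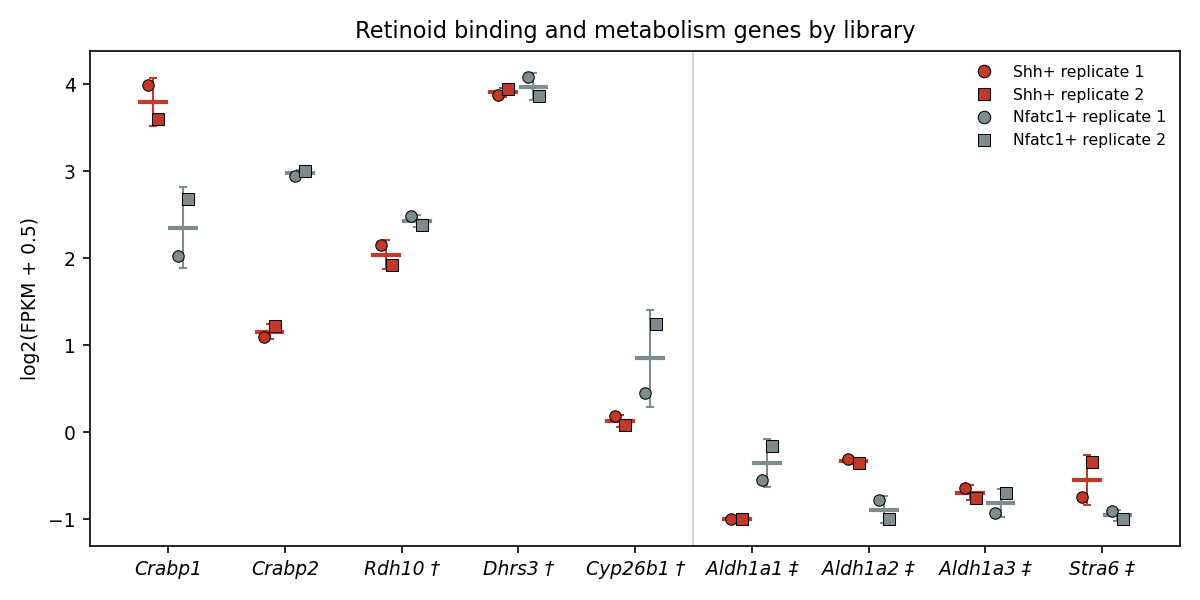
Levels of the 9 genes, log2(FPKM + 0.5), with 1 point for each library (Shh+ red, Nfatc1+ grey); thick lines give the mean, bars the SD (n = 2), † marks genes that were not called and ‡ genes too low to be tested. Crabp1 sits higher in Shh+ cells and Crabp2 higher in Nfatc1+ cells, Dhrs3 overlaps, and the 4 genes right of the line lie below 0.5 FPKM in every library.

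Among the 9 genes, neither of those whose enzymes pass retinol and retinal back and forth was called. Dhrs3 (chromosome 4, 144892827 to 144928209) had the highest mean FPKM of the 9 genes in both. It was at 14.1 and 14.9 FPKM in Shh+ cells, against 16.4 and 14.1 FPKM in Nfatc1+ cells, and the groups overlapped. Its log2 fold change was −0.07 with a 95% interval from −0.30 to 0.17 (adjusted p = 0.637). Without Nfatc1+ replicate 1 it was 0.04. Rdh10 (chromosome 1, 16105774 to 16133734) was at 3.96 and 3.29 FPKM in Shh+ cells, against 5.08 and 4.70 FPKM in Nfatc1+ cells. Both Nfatc1+ libraries were above both Shh+ libraries, as was the case for 35.1% of all tested genes. The log2 fold change of −0.39 (95% interval −0.72 to −0.06) did not pass the test (adjusted p = 0.0655). The ratio of Dhrs3 to Rdh10 FPKM was 3.57 and 4.51 in Shh+ libraries and 3.23 and 2.99 in Nfatc1+ libraries.

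Cyp26b1, which breaks down retinoic acid (chromosome 6, 84571414 to 84593908), was low. It was at 0.633 and 0.560 FPKM in Shh+ cells, against 0.871 and 1.86 FPKM in Nfatc1+ cells. The groups did not overlap, but Nfatc1+ replicate 2 stood well above the other 3 libraries. The log2 fold change was −0.72 with a standard error of 0.29 (adjusted p = 0.0986). It was −1.11 without Nfatc1+ replicate 1, where the gene was called (adjusted p = 0.0242), and −0.32 without Nfatc1+ replicate 2 (adjusted p = 0.483).

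The 3 genes of retinoic acid synthesis were near the lower limit of these libraries. Aldh1a1 (chromosome 19, 20492715 to 20643465) was listed at 0 in both Shh+ libraries, against 0.184 and 0.397 FPKM in Nfatc1+ libraries. Aldh1a2 (chromosome 9, 71215789 to 71296243) was at 0.309 and 0.284 FPKM in Shh+ libraries, against 0.0818 FPKM and a listed 0 in Nfatc1+ libraries. Aldh1a3 (chromosome 7, 66390890 to 66427517) was at 0.143 and 0.0923 FPKM in Shh+ libraries and 0.0265 and 0.115 FPKM in Nfatc1+ libraries, which overlapped. These levels correspond to very few fragments. The smallest whole numbers that match the Aldh1a3 values within 1% are 5 and 2 fragments in Shh+ libraries and 1 and 4 fragments in Nfatc1+ libraries. For Aldh1a2 they are 7 and 4 fragments in Shh+ libraries and 2 and 0 fragments in Nfatc1+ libraries, and for Aldh1a1 0 and 0 fragments in Shh+ libraries and 1 and 2 fragments in Nfatc1+ libraries. True numbers can be whole multiples of these. With no filter on low values, none of the 3 was called (adjusted p = 0.165, 0.093 and 0.688 for Aldh1a1, Aldh1a2 and Aldh1a3). That fit also lost the call of Crabp1 (adjusted p = 0.138), so it cannot show whether these genes differed between the populations.

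Stra6, the retinol transporter (chromosome 9, 58063788 to 58153996), was as low. It was at 0.0954 and 0.287 FPKM in Shh+ libraries, against 0.0330 FPKM and a listed 0 in Nfatc1+ libraries, and was not called with no filter (adjusted p = 0.338). The highest level of Stra6 and of the Aldh1a genes in any library was 0.397 FPKM, while Dhrs3, Crabp1, Crabp2 and Rdh10 were above 1 FPKM in all 4. Since these are bulk libraries, fewer expressing cells and less RNA per cell cannot be told apart.

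Aldh1a7, a mouse paralog beside Aldh1a1 (chromosome 19, 20692953 to 20727562, the opposite strand), had the higher level of the pair. It was at 0.879 and 0.551 FPKM in Shh+ cells, against 4.39 and 3.17 FPKM in Nfatc1+ cells. The log2 fold change was −1.82 with a standard error of 0.22 (adjusted p = 0.000939), or 5.29-fold higher in Nfatc1+ cells, and the call ended with no filter on low values (adjusted p = 0.0774). How fragments that match both paralogs were divided is not given in the sources used here, so the values of this pair are uncertain.

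Other genes of the pathway were taken from lists of 51 genes, written with earlier results of these data known. Of these, 30 were tested, 4 were called toward Shh+ cells and 12 toward Nfatc1+ cells, and 6 were listed at 0 in all 4 libraries; among all tested genes these shares were 18.1% and 18.9%. Their median log2 fold change was −0.29. Among the 30, 3 had a group mean under 0.5 FPKM and passed through the group in which they were high. With no filter on low values the counts were 2 and 4 (Shh+ and Nfatc1+ cells), and without Nfatc1+ replicate 1 they were 2 and 7.

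The list of other retinol and retinal oxidoreductases had all of its calls toward Nfatc1+ cells. It leaves out Rdh10 and Dhrs3 of the 9 genes, neither of which was called. Among all tested genes, 18.9% and 18.1% were called toward Nfatc1+ and toward Shh+ cells. Of the 13 tested on the list, 7 were higher in Nfatc1+ cells, 0 were called higher in Shh+ cells, and 6 were not called. By far the widest difference was that of Sdr16c5, an epidermal retinol dehydrogenase (chromosome 4, 3995936 to 4019663). It was at 2.67 and 3.19 FPKM in Shh+ cells, against 50.5 and 42.5 FPKM in Nfatc1+ cells. This was 15.9-fold higher in Nfatc1+ cells (log2 fold change −3.78 with a standard error of 0.12, adjusted p = 4.2e-06), place 24 of 12750 toward them. The neighbouring Sdr16c6, a gene of the same family (4055929 to 4077522), was at 7.47 and 6.60 FPKM in Shh+ cells, against 39.2 and 33.2 FPKM in Nfatc1+ cells (log2 fold change −2.28). In Nfatc1+ cells Sdr16c5 was thus at 9.95 and 9.06 times the level of Rdh10, and in Shh+ cells at 0.674 and 0.969 times. The calls of Sdr16c5 and Sdr16c6 held under all 13 alternatives.

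The remaining oxidoreductase calls were smaller or rested on low values. Adh7, an alcohol dehydrogenase that also oxidises retinol, was at 0.387 and 0.156 FPKM in Shh+ cells, against 1.66 and 1.11 FPKM in Nfatc1+ cells (log2 fold change −1.29), and it was tested only through its level in Nfatc1+ cells. Its call ended without Nfatc1+ replicate 1 (adjusted p = 0.0587) and with no filter on low values (0.119). Dhrs7 (−0.77), Rdh14 (−0.66), Rdh11 (−0.52) and Rdh12 (−0.49) were the others. The call of each ended with no filter on low values (adjusted p = 0.106, 0.203, 0.106 and 0.253, in that order). Rdh11, which reduces retinal, averaged 13.9 ± 1.58 FPKM in Shh+ cells, against 20.2 ± 0.408 FPKM in Nfatc1+ cells (SD, n = 2). Rdh14 lost its call when Nfatc1+ replicate 1 (adjusted p = 0.0628) or Shh+ replicate 2 (0.0661) was left out, and that of Rdh12 without Nfatc1+ replicate 1 (0.278), Shh+ replicate 1 (0.117) or Shh+ replicate 2 (0.128). Of the uptake and storage list, 4 of 10 genes were tested. Dgat1 (−0.41) and Awat2 (−0.89), acyltransferases that can esterify retinol, were called higher in Nfatc1+ cells, as were 18.9% of all tested genes. Both calls ended without Nfatc1+ replicate 1 (adjusted p = 0.108 and 0.116) and without Shh+ replicate 2 (0.0526 and 0.0659).

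**Figure D2:**
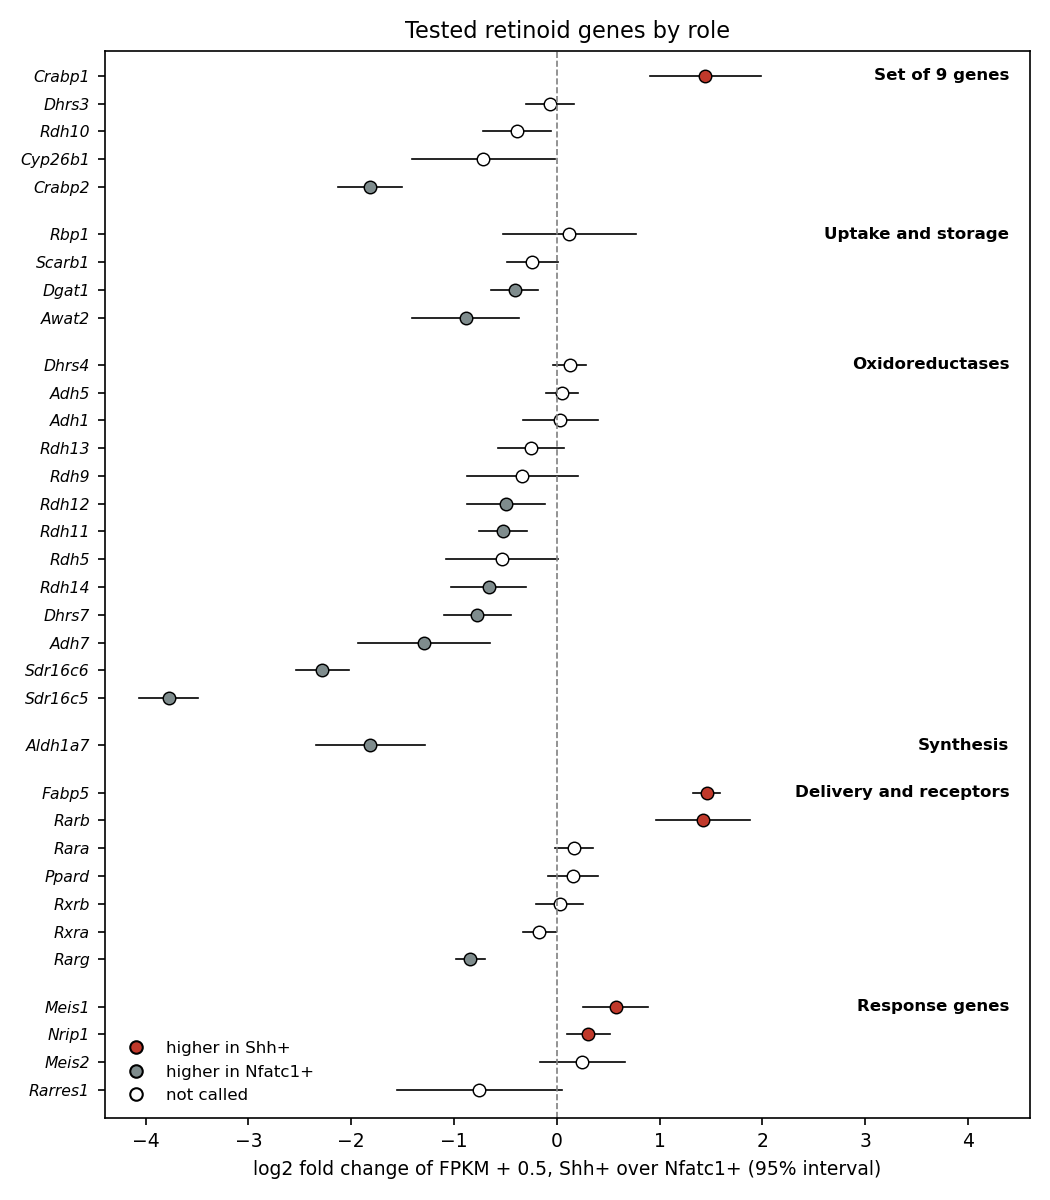
Difference in log2(FPKM + 0.5), Shh+ minus Nfatc1+, for the 5 tested genes of the binding and metabolism set and of other tested genes of the pathway, by role; lines are 95% intervals, with red for calls toward Shh+, grey for calls toward Nfatc1+ and open circles for no call. No oxidoreductase is red, and Sdr16c5 lies farthest to the left at −3.78.

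Genes that act downstream of retinoic acid differed in both directions. Fabp5, a fatty acid-binding protein that can carry retinoic acid to Ppard, was at 571 and 582 FPKM in Shh+ cells, against 213 and 206 FPKM in Nfatc1+ cells (log2 fold change 1.46 with a standard error of 0.06, adjusted p = 6.43e-06). It was far above both Crabp genes, at 349.5 and 319 times the FPKM of Crabp2 in Shh+ cells and 29.5 and 27.5 times in Nfatc1+ cells. Fabp5 also carries fatty acids, and its level is no measure of retinoic acid. Ppard itself was at 21.6 and 18.5 FPKM in Shh+ cells, against 16.9 and 18.9 FPKM in Nfatc1+ cells, and was not called (adjusted p = 0.265).

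Among the receptors, Rarg, the main RAR of epidermis (chromosome 15, 102234938 to 102257517), was lower in Shh+ cells. It was at 67.0 and 63.2 FPKM in Shh+ cells, against 116 and 118 FPKM in Nfatc1+ cells (log2 fold change −0.84 with a standard error of 0.06, adjusted p = 8.08e-05). Rara was at 44.6 and 40.5 FPKM in Shh+ cells, against 36.3 and 39.2 FPKM in Nfatc1+ cells (adjusted p = 0.133). Rarg therefore made up 58.9% and 59.7% of the summed FPKM of the 3 RAR genes in Shh+ cells, against 75.9% and 74.9% in Nfatc1+ cells. Rxra and Rxrb, genes of the partner receptors, were not called (adjusted p = 0.0896 and 0.839).

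**Figure D3:**
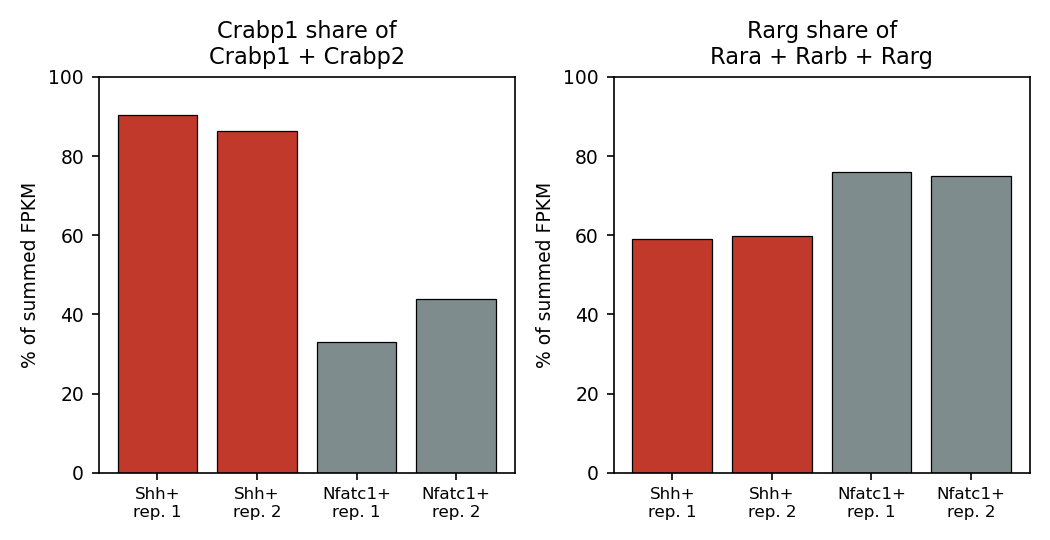
Share of Crabp1 in the summed FPKM of Crabp1 and Crabp2 (left) and share of Rarg in the summed FPKM of Rara, Rarb and Rarg (right), in percent, for each library of Shh+ (red) and Nfatc1+ (grey) cells. The Crabp1 share is 90.4% and 86.4% in Shh+ libraries and 33.0% and 44.0% in Nfatc1+ libraries.

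Rarb and Cyp26a1, the genes whose promoters held the repeats shown above, are induced by retinoic acid in many cells. Rarb (chromosome 14, 16430839 to 16819156) was at 2.09 and 2.12 FPKM in Shh+ cells, against 0.527 and 0.426 FPKM in Nfatc1+ cells, so it was tested only through its level in Shh+ cells. This was 4.42-fold higher in Shh+ cells (log2 fold change 1.42 with a standard error of 0.19, adjusted p = 0.00147), and the call held under all 13 alternatives. Exons of Rarb overlap those of Top2b on the opposite strand, and the strand setting of the quantification is not given in the sources used here. Top2b was at 93.2 and 104 FPKM in Shh+ cells, against 92.4 and 95.2 FPKM in Nfatc1+ cells (adjusted p = 0.47). Cyp26a1 was at 0.401 and 0.0923 FPKM in Shh+ libraries and listed at 0 in both Nfatc1+ libraries, too low to be tested, and Cyp26c1 was at 0.0665 FPKM in Shh+ replicate 1 and listed at 0 in the other 3.

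The list of 14 genes known to respond to retinoic acid in other cells holds none of the 9 genes, whatever their own response to it. From that list, 7 were tested, and their median log2 fold change was 0.25. Of these, 3 were called toward Shh+ cells: Rarb, Meis1 (log2 fold change 0.57) and Nrip1 (0.31). In the other direction, 1 was called toward Nfatc1+ cells, and 3 were not called. Among all tested genes, 18.1% were called toward Shh+ cells and 18.9% toward Nfatc1+ cells. Meis1, a homeobox gene, was at 13.2 and 12.6 FPKM in Shh+ cells, against 7.45 and 9.76 FPKM in Nfatc1+ cells. Its exons overlap those of Gm16140 on the opposite strand and, unlike those of Rarb, those of a gene on the same strand, Gm37818. No values were found for these partners, so the values of Meis1 are uncertain. Meis1 lost its call when Nfatc1+ replicate 1 was left out (adjusted p = 0.0585), and likewise for Shh+ replicate 1 (0.0659). That of Nrip1, a nuclear receptor cofactor, ended without any 1 of the 4 libraries (adjusted p from 0.0574 to 0.166).

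Markers of other cells moved with some of these genes, and their part in the results was not tested. Melanocyte genes were higher in replicate 2 for all 10 of 10 in both populations, at a summed 8.20 and 46.1 FPKM in Shh+ cells, against 32.2 and 67.1 FPKM in Nfatc1+ cells. Dermal fibroblast genes other than Dcn, a split made after the values were seen, summed to 365 and 386 FPKM in Shh+ cells, against 448 and 737 FPKM in Nfatc1+ cells, and were all higher in replicate 2 of Nfatc1+ cells, as Crabp1 and Cyp26b1 were. Dcn, an abundant dermal gene, was at 326 and 425 FPKM in Shh+ cells, against 40.3 and 57.6 FPKM in Nfatc1+ cells. The 10 genes of the dermal condensate, the dermal cells under the peg, summed to 39.9 and 37.5 FPKM in Shh+ cells, against 64.8 and 79.3 FPKM in Nfatc1+ cells. Most of that gap was Prdm1, at 7.61 and 6.03 FPKM in Shh+ cells, against 34.9 and 39.0 FPKM in Nfatc1+ cells. Without it, a split made after the values were seen, the sums overlapped at 32.3 and 31.4 FPKM in Shh+ cells, against 29.9 and 40.3 FPKM in Nfatc1+ cells. Most of what remained was Trps1, at 29.18 and 28.31 FPKM in Shh+ cells, against 22.49 and 30.35 FPKM in Nfatc1+ cells. These sums therefore say little about the weaker condensate genes. Of the 5 condensate genes tested, Prdm1 and Sox2 were called toward Nfatc1+ cells, as were 18.9% of all tested genes, and 3 were not called. Corin was not tested, at 0.0612 and 0.132 FPKM in Shh+ cells, against 0.0946 and 0.143 FPKM in Nfatc1+ cells. In Nfatc1+ cells, all 10 condensate and all 8 endothelial genes were also higher in replicate 2. So were 15 of 21 immediate early and stress, 5 of 9 differentiated epidermal, 4 of 8 Merkel cell, 4 of 8 immune, 1 of 9 sebocyte and 1 of 7 epithelial genes. The share of all genes higher in replicate 2 is not given here, so how far any list departs from it is unknown.

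Sebocyte and Merkel cell genes were higher in the Nfatc1+ libraries, in which Crabp2 and Sdr16c5 were higher. For scale, 18.9% of all tested genes were called toward Nfatc1+ cells and 18.1% toward Shh+ cells. The 9 sebocyte genes summed to 83.6 and 67.2 FPKM in Shh+ cells, against 165 and 151 FPKM in Nfatc1+ cells, and 5 of the 7 tested were higher in Nfatc1+ cells, of which Pparg and Elovl3 reached the level for the test only through the Nfatc1+ libraries. The 8 Merkel cell genes summed to 23.2 and 27.9 FPKM in Shh+ cells, against 54.3 and 60.7 FPKM in Nfatc1+ cells, with 6 of 7 tested higher in Nfatc1+ cells, of which Atoh1, Krt20 and Isl1 reached that level only through the Nfatc1+ libraries. Most differentiated epidermal genes went the other way, with 6 of 8 tested higher in Shh+ cells (1 of them, Lor, tested only through its level there). Of the 8, 1 was called toward Nfatc1+ cells: Krtdap, at 178 and 175.5 FPKM in Shh+ cells, against 357 and 340 FPKM in Nfatc1+ cells (log2 fold change −0.98). The list summed to 1262 and 1053 FPKM in Shh+ cells, against 888 and 937 FPKM in Nfatc1+ cells. Immediate early and stress genes, which tissue digestion can induce, summed to 3268 and 2958 FPKM in Shh+ cells, against 4414 and 4787 FPKM in Nfatc1+ cells, with 17 of 21 higher in Nfatc1+ cells and 2 in Shh+ cells. Endothelial and immune lists were low, summing to at most 6.44 and 6.90 FPKM in any library, and the immune genes Cd3e and Cd207 were listed at 0 in all 4.

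**Figure D4:**
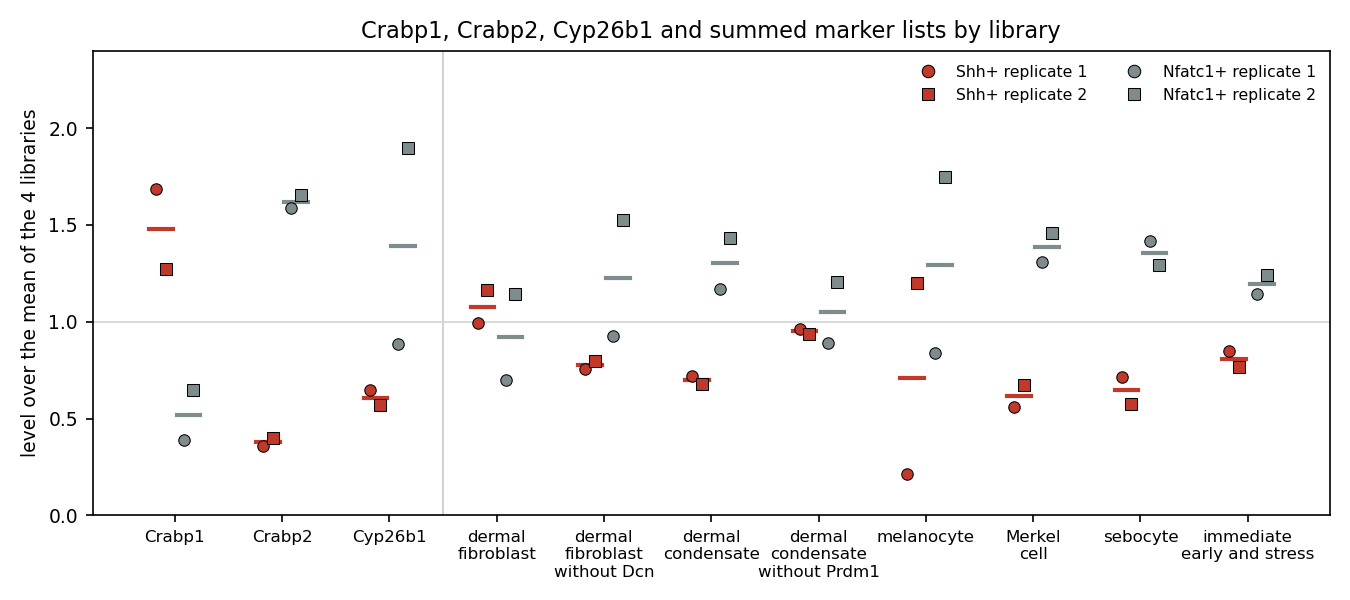
Level of Crabp1, Crabp2 and Cyp26b1 and summed level of the marker lists in each library of Shh+ (red) and Nfatc1+ (grey) cells, each divided by its mean over the 4 libraries; thick lines are group means. Crabp1 is higher in Shh+ cells, where the Merkel cell and sebocyte sums are lower, and the condensate sums overlap once Prdm1 is left out. Most of that remaining condensate sum is Trps1. Cyp26b1 is highest in Nfatc1+ replicate 2, as are Crabp2 and every summed list shown except the sebocyte list and the fibroblast list with Dcn.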

How the data were processed

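Paired-end reads of 4 libraries were mapped by the authors to GRCm38/mm10 with TopHat2 2.0.13 and quantified with Cufflinks 2.2.1, and the deposited values are FPKM per gene and library; HTSeq is also listed in the submitters' processing notes. The gene annotation is not given in the sources used here. From these values, genes averaging 0.5 FPKM or more were tested on log2(FPKM + 0.5) with limma 3.58.1 in R 4.3.3 (intensity trend, group as the only term, two-sided, Benjamini-Hochberg adjustment over 12750 genes), which was tested on simulated data. All 9 genes are named with every library's value, and other pathway genes where they passed the test or are a close paralog; Rara, Rxra, Rxrb, Ppard and the single marker genes fall outside this rule and were named after their values were seen. The members and lists were chosen with earlier results of these data known. Bco1 and Stra6l were found under older symbols, and Flg was not analysed here. Alternatives were other pseudocounts, filters, scalings and call rules, no intensity trend, a replicate block, and leaving out each library. Gene positions are from GENCODE M21 (GRCm38). Relative depth is the commonest ratio of low values to those of Nfatc1+ replicate 1. Marker lists were summed in FPKM. There were 0 unused columns. A tested pathway gene that is included in the counts is not reported here by name.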

Additional observations from a re-analysis of the deposited data

How the results depend on the processing

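Of the 9 genes, Crabp2 kept its call under all 13 alternatives (log2 fold change −2.03 to −1.62), and Crabp1 under 12, its call ending with no filter on low values, where 23361 genes were tested and 0 of the 9 genes were called higher in Shh+ cells. Without Nfatc1+ replicate 1, Cyp26b1 was also called, and Dhrs3 changed sign (−0.174 to 0.042 over the 4 fits without a library). Leaving out single libraries gave 1 to 1 of the 9 genes higher in Shh+ cells and 1 to 2 higher in Nfatc1+ cells, and 2 to 3 and 7 to 14 of the other pathway genes. With no filter, 2 and 4 other pathway genes and 900 and 1109 of all genes were called higher in Shh+ and in Nfatc1+ cells. With a call set instead at a fold over 2 and an unadjusted p below 0.01, 2 and 5 other pathway genes and 600 and 734 of all genes were, against 2310 and 2406 in the main analysis. Other scalings put the median log2 fold change of all genes at −0.0088 and −0.013. Where a population was left with 1 library, that library was assumed to vary like the others. Same-numbered libraries share only a number: the correlation of their deviations was 0.11 over 12750 genes, and with the replicate block 2424 and 2523 of all genes, 4 and 12 other pathway genes and 1 and 1 of the 9 genes were called; it changed none of the calls of the 21 tested genes that the naming rule gave. Depth limits what can be said of the Aldh1a genes and Stra6.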

Other observations

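Several retinoid genes that were too low to be tested had both libraries of a population above both of the other; they were picked after their values were seen. Rbp7, a cellular retinol-binding protein gene, was listed at 0 in both Shh+ libraries and was at 0.397 and 0.639 FPKM in Nfatc1+ libraries. Rbp4, which encodes the carrier of retinol in blood, was at 0.121 FPKM and a listed 0 in Shh+ libraries and at 0.447 and 0.601 FPKM in Nfatc1+ libraries. Rbp2, best known from the intestine, was at 1.09 and 0.293 FPKM in Shh+ libraries and listed at 0 in both Nfatc1+ libraries. Tgm2, a transglutaminase gene induced by retinoic acid in other cells, was at 0.0821 and 0.132 FPKM in Shh+ libraries and 0.457 and 0.575 FPKM in Nfatc1+ libraries. Of all tested genes, which average 0.5 FPKM or more, 70.7% had groups that did not overlap. The share among genes below that level, such as these, was not computed.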
